A study of Homo sapiens with 3 samples.

Results

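The genes described here are 8 cytochrome P450 genes, CYP2C8, CYP2C18, CYP2C19, CYP2D6, CYP2E1, CYP2J2, CYP1A1 and CYP1A2. They were chosen by name, and each was taken with the SOX4 and STAT6 peaks lying on the gene or within 1000 bp of it, which gave 36 of 4513 SOX4 peaks and 44 of 1078 STAT6 peaks. The libraries came from Hep3B cells, a long-established line of human liver cancer, and the labels name no gene edit and no treatment for them, only the culture medium with serum that all 3 share. SOX4 and STAT6, both transcription factors, were each profiled in 1 library with an antibody (abnova PAB14092 and Cell Signaling 5397S), and the IgG library, made with a non-specific antibody, served as the background for both. CUT&RUN was used, in which a nuclease led to the antibody cuts out the DNA around the bound site.

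Each group thus held 1 library with no replicate, so no p-value is given and all values describe these libraries. The unit is the fold enrichment over IgG that the authors deposited for each peak. Peak lists carry no expression values, so the liver cell type could not be checked from its markers. Of 18 genes characteristic of hepatocytes, FGA, a fibrinogen chain, was the 1 gene with a peak, and it had both lists. ALB and AFP, which encode albumin and alpha-fetoprotein, were among those with none. Of all protein-coding genes, 6.35% held a SOX4 peak, 1.08% a STAT6 peak and 1.03% both. The 1 of 18 is close to the SOX4 share and above the others, but 1 gene is too few to compare. How many reads stood behind each list is unknown.

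Cytochrome P450 enzymes are heme proteins, mostly of the endoplasmic reticulum, that insert an oxygen atom into drugs, toxins, steroids and fatty acids. The liver is their main site for drugs, and single enzymes are known for their substrates, such as CYP1A2 for caffeine, CYP2E1 for ethanol, CYP2C19 for proton pump inhibitors and CYP2D6 for codeine. Genes of a subfamily often lie side by side and resemble each other in sequence, as do CYP1A1 and CYP1A2 on chromosome 15 and the CYP2C genes on chromosome 10. The CYP1A genes are classic targets of AHR, a receptor for dioxins and other aromatic compounds.

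Both lists had a peak over the start site of every member whose promoter sequence was at hand, 6 in all. RefSeq promoters of CYP1A1, CYP1A2, CYP2C19 and CYP2E1 (GRCh38.p14, 250 bases before to 50 after the start site, read along the gene) are shown because each was overlapped by peaks of both lists and held a match to a SOX or STAT motif. They lie at chr15:74725479-74725778 on the minus strand, chr15:74748595-74748894 on the plus strand, chr10:94762431-94762730 on the plus strand and chr10:133527113-133527412 on the plus strand. Capitals mark every match to ACAAAG or ACAATG for SOX factors, TTCNNNGAA or TTCNNNNGAA for STAT factors and GCGTG, the core of the AHR element, on either strand.
CYP1A1: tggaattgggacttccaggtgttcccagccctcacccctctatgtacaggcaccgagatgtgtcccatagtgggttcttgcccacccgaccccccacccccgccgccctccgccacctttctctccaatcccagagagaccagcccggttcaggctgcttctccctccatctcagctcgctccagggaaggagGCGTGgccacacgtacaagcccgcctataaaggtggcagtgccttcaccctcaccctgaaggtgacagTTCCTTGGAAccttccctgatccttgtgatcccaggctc
CYP1A2: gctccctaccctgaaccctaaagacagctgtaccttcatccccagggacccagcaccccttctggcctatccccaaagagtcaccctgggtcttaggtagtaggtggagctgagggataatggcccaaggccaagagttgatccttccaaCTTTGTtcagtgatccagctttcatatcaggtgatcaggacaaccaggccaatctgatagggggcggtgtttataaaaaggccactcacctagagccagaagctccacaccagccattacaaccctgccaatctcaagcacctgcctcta
CYP2C19: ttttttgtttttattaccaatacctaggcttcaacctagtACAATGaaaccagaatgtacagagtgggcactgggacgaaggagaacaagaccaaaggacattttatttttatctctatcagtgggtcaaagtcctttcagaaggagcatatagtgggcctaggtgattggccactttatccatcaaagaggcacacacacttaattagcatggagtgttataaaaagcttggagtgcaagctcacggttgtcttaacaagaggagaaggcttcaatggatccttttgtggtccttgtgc
CYP2E1: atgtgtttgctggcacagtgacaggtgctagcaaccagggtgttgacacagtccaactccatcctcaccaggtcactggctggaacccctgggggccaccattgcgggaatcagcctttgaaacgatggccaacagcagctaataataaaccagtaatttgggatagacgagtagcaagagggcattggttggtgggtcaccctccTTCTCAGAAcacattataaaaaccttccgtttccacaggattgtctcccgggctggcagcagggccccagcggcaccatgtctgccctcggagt

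Of the 6 promoters, 5 held a match to at least 1 of the motifs. A SOX motif was present in 2 of the 6, in CYP1A2 at 74748745 to 74748750 and in CYP2C19 at 94762471 to 94762476, and in 19.4% of the first listed promoters of 15843 protein-coding genes. STAT motifs were also present in 2, in CYP1A1 at 74725508 to 74725517, just behind the start site, and in CYP2E1 at 133527319 to 133527327, against 11.6% of all. The AHR core was present in CYP1A1 and CYP2J2 and in 44.1% of all. CYP2C8 had none of these letters in its window. The windows are short, and sequence under the other peaks was not analysed here. The GC content of the 6 windows ran from 34.0% in CYP2C8 to 63.3% in CYP2J2, and the median over all was 62.7%.

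All 8 genes held peaks of both lists. Among 20037 protein-coding genes, 6.35% held a SOX4 peak by the same rule, 1.08% a STAT6 peak and 1.03% both. Of the first listed promoters, taken as windows from 250 bases before to 50 after the start site, 0.789% overlapped a SOX4 peak and 0.473% a STAT6 peak. By this rule the windows of all 6 members with a promoter sequence overlapped peaks of both lists. The members were proposed with results of these data known, so their counts are no independent evidence about P450 genes. All 8 were among the 206 genes with peaks of both lists, whose median was 1.5 SOX4 and 2 STAT6 peaks a gene. CYP2C18 and CYP2C19 held 8 SOX4 peaks each, CYP2J2 7, CYP2C8 6, CYP2E1 3, CYP1A1 2, and CYP1A2 and CYP2D6 1 each. Of STAT6 peaks, CYP2C8, CYP2C19 and CYP2J2 held 8 each, CYP2E1 6, CYP2C18 and CYP1A2 5 each, CYP1A1 3 and CYP2D6 1.

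**Figure D1:**
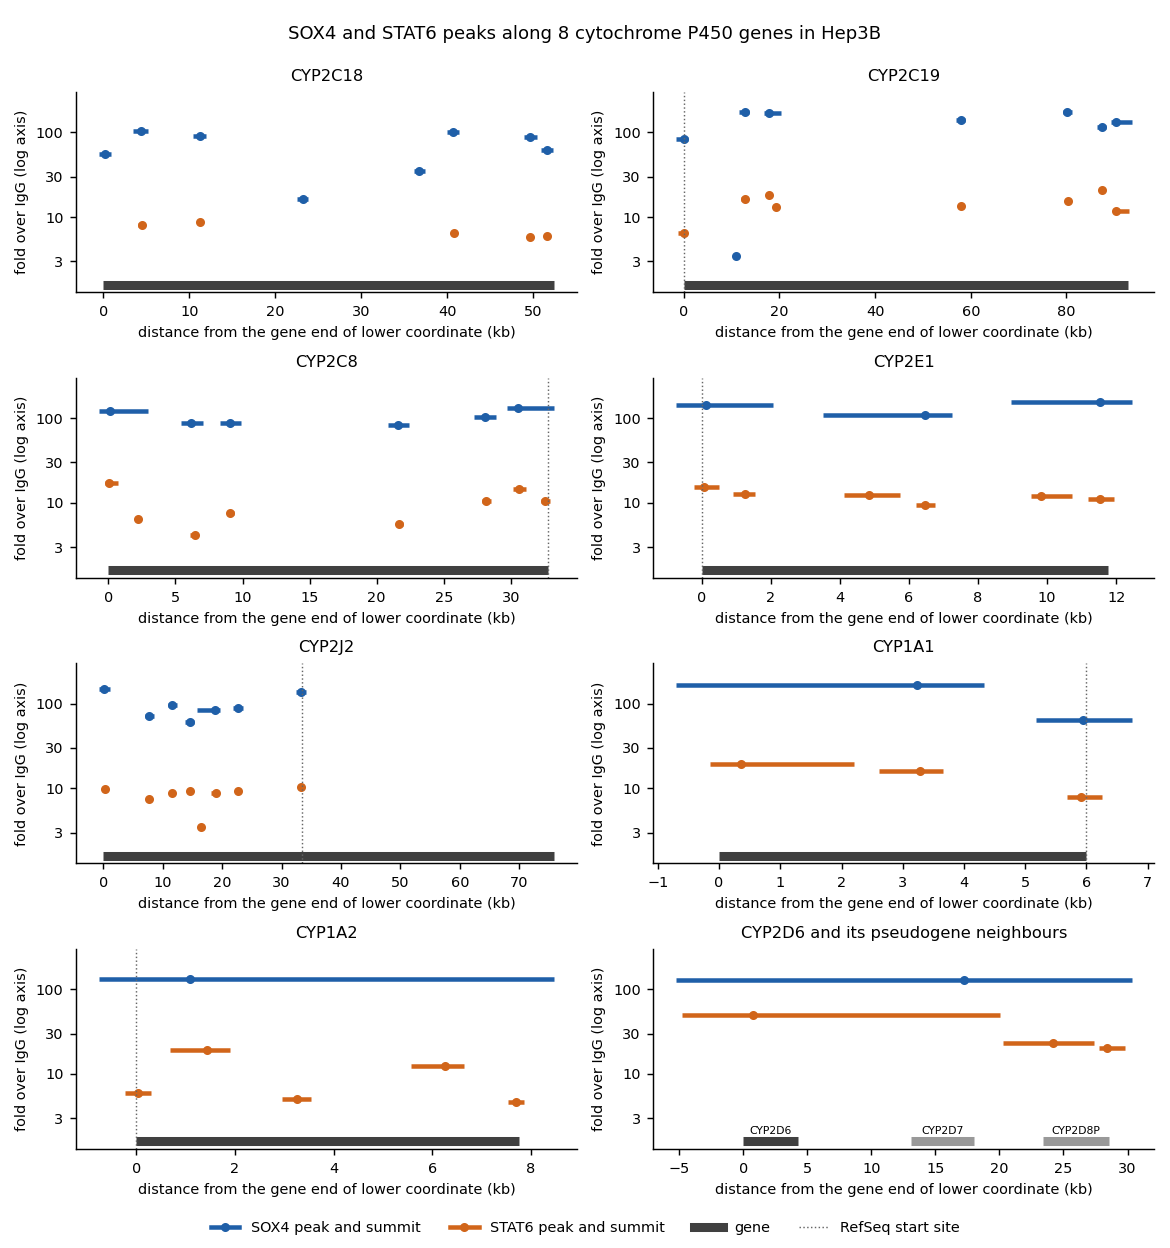
Peaks along the 8 genes. The horizontal axis is the distance in kb from the gene end of lower coordinate and the vertical axis the fold enrichment over IgG on a log axis, bars span a peak, dots mark its summit, and the dotted line is the RefSeq start site where a promoter was at hand. In every panel the SOX4 peaks sit above the STAT6 peaks within them, and no peak lies in the upper part of CYP2J2.

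In the SOX4 list the members stood near the top. Their fold enrichment had a median of 102 and quartiles of 82.9 and 135, whereas the median over all SOX4 peaks was 5.88 and the upper quartile 12.3. Of the 36 peaks, 33 had values of 50 or more, as had 13.0% of the whole list. The median of the members lay close to that of all 640 SOX4 peaks that overlapped a STAT6 peak, which was 95.5. By its highest SOX4 peak, CYP2C19 came first with 174, followed by CYP1A1 with 166, CYP2E1 with 156, CYP2J2 with 149, CYP1A2 with 133, CYP2C8 with 132, CYP2D6 with 130 and CYP2C18 with 103. Without replicates, neighbours in this order cannot be told apart beyond the deposited values.

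The STAT6 values were lower and closer to those of their own list. Their median was 10.1 with quartiles of 7.32 and 13.9, against a list median of 7.27, and 33 of the 44 peaks lay above the list median. CYP2D6 led with 49.9, then CYP2C19 with 20.9, CYP1A2 with 19.2, CYP1A1 with 19.1, CYP2C8 with 17.0, CYP2E1 with 15.2, CYP2J2 with 10.4 and CYP2C18 with 8.85. CYP2C18 was last in both lists. CYP2C19 stood within the highest pair of genes in both.

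**Figure D2:**
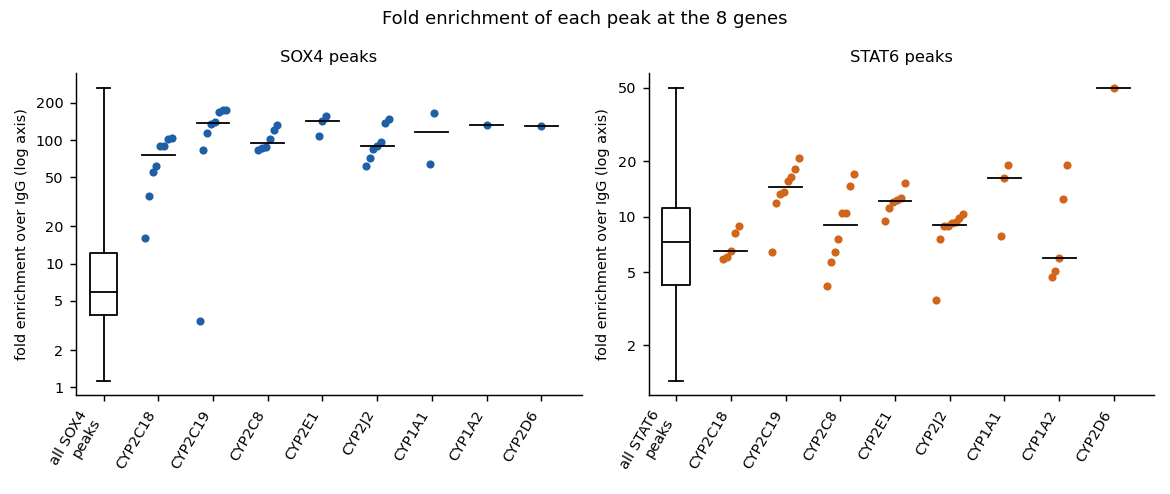
Fold enrichment over IgG (log axis) of each SOX4 peak (left) and STAT6 peak (right) at the 8 genes, with a line at the gene's median. The box at the left of each panel gives the median, quartiles and range of all 4513 SOX4 or 1078 STAT6 peaks, and the SOX4 members lie above its upper quartile but for 1 peak of CYP2C19, at 3.46.

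The overlap of the lists at these genes was complete from the STAT6 side. All 44 STAT6 peaks overlapped a SOX4 peak (exact binomial 95% interval 92.0% to 100%, counting error over peaks only), and all 44 lay wholly inside it. Over the whole list 78.7% of STAT6 peaks overlapped a SOX4 peak, and in 97.2% of the 850 overlapping pairs the STAT6 peak lay inside, so containment was near the general share. With stricter rules the share at the 8 genes was lower, at 63.6% with summits within 200 bp and 9.09% when the overlap had to span 50% or more of each peak. Peaks of a gene are not replicates, and several STAT6 peaks share a SOX4 peak. The interval allows neither for this nor for the choice of genes with results known. The lists also share their IgG control, so the agreement of positions is not independent of it. Apart from CYP2D6, 31 SOX4 peaks contained a STAT6 peak. Counting only the STAT6 summit closest to each of these, the distance had a median of 33 bp and was within 100 bp in 27 of the 31. Over all 44 pairs, CYP2D6 included, the median was 68.5 bp and the highest distance 16447 bp. Over the 850 pairs of the whole lists the median was 73 bp, so the closeness of summits was near the general value. The distance to the closest STAT6 summit alone was not computed for the whole lists. CYP2J2 had some of the closest pairs, with summits 59904928 and 59904926 in its body and 59926602 and 59926598 near its start.

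From the SOX4 side the overlap was partial, with 32 of the 36 peaks at the 8 genes (88.9%) meeting a STAT6 peak. In the whole SOX4 list this held for 640 of 4513 peaks (14.2%), so most listed SOX4 peaks lacked STAT6. The genes were chosen with results known, so these shares are no test. The 4 SOX4 peaks at the 8 genes without a STAT6 peak were at CYP2C18 and CYP2C19. CYP2C18 had 3 of them. Its SOX4 peaks, in order along chromosome 10 from 94683239 to 94736017, had fold enrichments of 55.2, 103, 89.6, 16.2, 35.4, 102, 88.8 and 61.4. The peaks at 55.2, 16.2 and 35.4 lacked STAT6 and were the lowest 3 of the gene. Its 5 STAT6 peaks were at 8.19, 8.85, 6.53, 5.89 and 6.01. In CYP2C18 the STAT6 peaks thus fell on the 5 SOX4 peaks with the highest values.

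CYP2C19, the proton pump inhibitor and clopidogrel enzyme, runs from 94762681 to 94855547. Along it the SOX4 fold enrichments were 83.0 at the start site, then 3.46, 174, 167, 141, 173, 114 and 134 toward the other end. The peak at 3.46, from 94773450 to 94773758, was 309 bp wide, lacked STAT6 and lay in MTND4P19, a pseudogene of mitochondrial origin placed by RefSeq within CYP2C19. The SOX4 peaks on either side, at 83.0 and 174, overlapped MTND4P19 as well. Of the STAT6 values, the 6.45 at the start site was the lowest and the 20.9 at 94849653 to 94850456 the highest of 8. A stretch of 36.8 kb, from 94782921 to 94819672, held no SOX4 peak, and no STAT6 peak lay in it.

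CYP2C8, known for paclitaxel oxidation, lies on the minus strand from 95036772 to 95069497. Its SOX4 peaks were higher at both ends of the gene, with 122 at the end of lower coordinate and 132 over the start site, and ranged from 82.4 to 102 between them. The 2 highest STAT6 peaks also lay toward the ends, with 17.0 at the lower end and 14.7 within the SOX4 peak at the start. The STAT6 peak over the start site itself had 10.4, as had an interior peak at 95064594 to 95065253. The other interior peaks fell between 4.19 and 7.59, and another peak at the lower end had 6.40.

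Pseudogenes of the subfamily between CYP2C19 and CYP2C8 held peaks as well. CYP2C115P, with 366 bp in the gene table, lay under a SOX4 peak of 22.2, CYP2C59P under 37.2 and CYP2C60P under 72.3, the last also under a STAT6 peak of 5.69. CYP2C58P held none. Between CYP2C18 and CYP2C19, 26.5 kb apart, the 1 SOX4 peak that reached neither gene began 1663 bp past CYP2C18 and had a fold enrichment of 4.74, just outside the 1000 bp margin. How reads that match several CYP2C copies were placed is not given in the sources used here.

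CYP2E1, the ethanol-oxidizing enzyme, lies at 133527363 to 133539123 near the other end of chromosome 10, far from the CYP2C genes. It had 3 SOX4 peaks, at 141 over the start site, 109 in the middle and 156 over the far end, and each contained 2 STAT6 peaks. Those had 15.2 and 12.6 at the start, 12.3 and 9.49 in the middle and 12.0 and 11.1 at the far end. The STAT6 values of CYP2E1 thus stayed within 9.49 to 15.2. Each SOX4 summit had a STAT6 summit close by, at 61 bp over the start, 0 bp in the middle and 2 bp at the far end.

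CYP2J2, an epoxygenase of arachidonic acid, showed where its peaks stopped. The gene table gives it from 59893308 to 59969212 on chromosome 1, and the RefSeq promoter begins transcription at 59926773 on the minus strand. All 7 SOX4 and 8 STAT6 peaks lay at or downstream of this start, and none lay wholly in the 42.4 kb of the table's gene upstream of it. In the 33.5 kb downstream, SOX4 peaks covered 37.0% and STAT6 peaks 14.8% of the bases. SOX4 was highest at the ends of this stretch, with 149 at the lower end and 138 over the start, and lay between 61.3 and 97.1 inside. STAT6 values differed less, from 7.59 to 10.4, but for 3.51 at 59909735 to 59910012.

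At CYP1A1 and CYP1A2 the peaks lay on the genes and their edges, and little of the space between them was covered, 6.48% by SOX4 and 2.16% by STAT6. CYP1A1, which oxidizes polycyclic aromatic hydrocarbons, lies at 74719542 to 74725528 on the minus strand and CYP1A2 at 74748845 to 74756607 on the plus strand, so that their start sites face each other across 23.3 kb. No peak of either list lay wholly in this interval. SOX4 peaks reached 751 bp past the CYP1A1 start and 760 bp before that of CYP1A2, and 21.8 kb between them were free of SOX4 peaks. STAT6 peaks reached 263 bp and 240 bp.

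Within CYP1A1 the start site was the weaker place. SOX4 had 64.4 in the peak over the start and 166 in the peak over the rest of the gene, and STAT6 had 7.85 at the start, 16.2 at a summit 2712 bp downstream and 19.1 at 5625 bp downstream. CYP1A2 held 1 SOX4 peak of 133 over its whole length, 9236 bp wide. Its 5 STAT6 peaks had 5.93 at the start, 19.2 with a summit 1438 bp downstream, then 5.09, 12.5 and 4.71. The start site was therefore not the strongest STAT6 site of either gene.

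The same comparison was made for all 6 genes with a known start. The peak over the start was the highest SOX4 peak of its gene in CYP2C8 and CYP1A2, the latter with 1 peak, and the highest STAT6 peak in CYP2E1 and CYP2J2. In all 12 cases the nearest summit lay downstream of the start. For STAT6 the distances were 31 bp in CYP1A2, 48 bp in CYP2C19, 73 bp in CYP1A1, 74 bp in CYP2E1, 175 bp in CYP2J2 and 224 bp in CYP2C8. For SOX4 they were 50 bp in CYP1A1, 135 bp in CYP2E1, 139 bp in CYP2C19 and 171 bp in CYP2J2, with 1090 bp in CYP1A2 and 2180 bp in CYP2C8, whose peaks were wider. Only the STAT6 summits of CYP1A2 and CYP2C19 fell inside the 300 bases printed above, near their end.

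**Figure D3:**
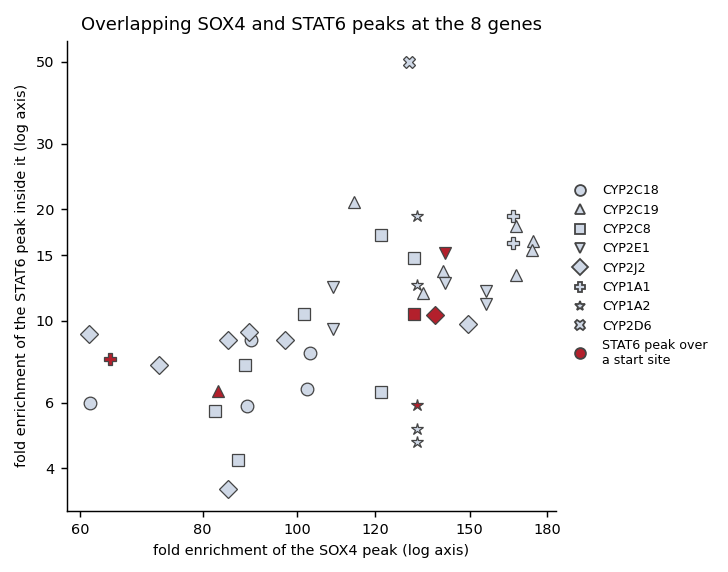
Fold enrichment of each STAT6 peak against that of the SOX4 peak around it (both on log axes), with 1 symbol a gene and red for STAT6 peaks over a start site. Of the 44 pairs, the CYP2D6 pair stands highest for STAT6 at 49.9, and the red points lie between 5.93 and 15.2.

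Higher SOX4 values tended to go with higher STAT6 values in a pair. Over the 44 pairs Spearman's rho was 0.635 and Pearson's r of the log2 values 0.547, and without CYP2D6 they were 0.659 and 0.592. These are descriptions, since pairs share the IgG library and the local sequence, and several STAT6 peaks share a SOX4 peak. Over all 850 overlapping pairs of the lists rho was 0.704.

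CYP2D6, which activates codeine and clears many antidepressants, stood apart by width. The SOX4 peak there ran from 42121274 to 42156818 on chromosome 22, and with 35545 bp it was the widest of the list, the next being 16512 bp. The STAT6 peak, from 42121757 to 42146548, had 24792 bp and was also the widest of its list, the next being 16522 bp. CYP2D6 itself takes up 4312 bp, from 42126499 to 42130810, so that the SOX4 peak reached 5225 bp below and 26008 bp above it. Both peaks covered CYP2D7, a transcribed pseudogene of the family, in full. The SOX4 peak also covered CYP2D8P, another pseudogene, of which STAT6 peaks covered 92.7%.

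The summits of the lists fell in different copies. The STAT6 summit, 42127286, lay in CYP2D6, and the SOX4 summit, 42143733, lay 16447 bp away in CYP2D7. Beyond the wide STAT6 peak, 2 more STAT6 peaks followed inside the SOX4 peak, from 42146789 to 42153908 with a fold enrichment of 23.04 (rank 7) and from 42154284 to 42156291 with 20.1 (rank 23), and both had their summits in CYP2D8P. STAT6 peaks in all covered 95.4% of the wide SOX4 peak. By fold enrichment the STAT6 peak at CYP2D6 was rank 1 of 1078, while the SOX4 peak was rank 141 of 4513. CYP2D6, CYP2D7 and CYP2D8P are close relatives in sequence. What was done with reads that fit more than one copy is not given in the sources used here, so which copy gave the reads is uncertain.

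The covered share of a gene was higher in shorter genes. SOX4 peaks covered 100% of CYP2D6 and CYP1A2, 85.9% of CYP1A1 and 73.3% of CYP2E1, all under 12 kb, but 37.5% of CYP2C8, 21.2% of CYP2C18, 17.4% of CYP2C19 and 17.3% of CYP2J2. In kb the covered sequence varied less, from 4.31 in CYP2D6 to 16.2 in CYP2C19. STAT6 peaks covered 100% of CYP2D6, 59.5% of CYP1A1, 44.0% of CYP1A2 and 43.0% of CYP2E1, against 4.49% to 14.1% of the longer 4. Over the 283.8 kb of the 8 genes the shares were 27.7% for SOX4 and 13.3% for STAT6.

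Flanks as long as the gene, beginning 5000 bp beyond its ends, were compared with it. At CYP1A1, CYP1A2, CYP2E1 and CYP2J2 no base of either flank was covered in either list. The flanks of the CYP2C genes run into neighbouring genes and pseudogenes, and SOX4 peaks covered between 0% and 16.1% of them. STAT6 peaks covered 9.003% of the upper flank of CYP2C18, more than the 4.49% of the gene itself, and this flank reaches into CYP2C19. The upper flank of CYP2D6 lay in the wide peaks and was covered to 100% in both lists, the lower to 5.22% by SOX4 and 0% by STAT6.

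**Figure D4:**
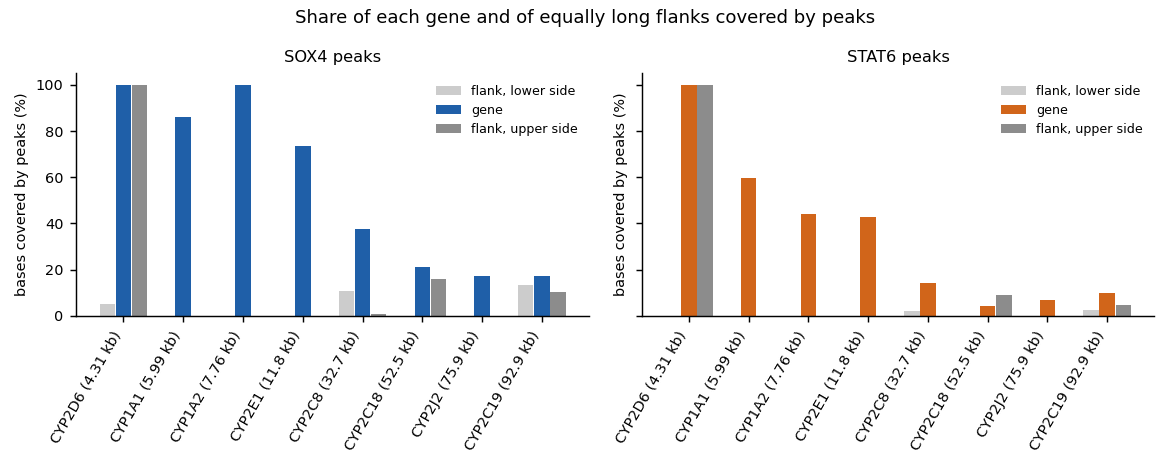
Percent of bases of each gene (coloured) and of flanks of the same length, 5000 bp away from it (grey), covered by SOX4 peaks (left) and STAT6 peaks (right), genes ordered by length. Coverage is 100% at CYP2D6, the shortest gene, and 17.4% (SOX4) and 9.96% (STAT6) at CYP2C19, the longest, and 4 genes have no covered flank.

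Other P450 genes were looked up by family. Of 48 further P450 genes looked up, a list that is not complete, 19 held a SOX4 peak and 18 held peaks of both lists. These 18 were all among the 26 genes of families 1 to 4. None of the 22 genes of other families, such as CYP7A1 and CYP27A1 of bile acid synthesis and CYP17A1 and CYP19A1 of steroid synthesis, had a peak in either list. Of all protein-coding genes, 6.35% held a SOX4 peak and 1.03% peaks of both lists. None of 22 is little below these shares in so short a list. Within family 2, CYP2U1 was the 1 gene of 9 with none. Family 4 was mixed. CYP4A11, CYP4A22, CYP4B1, CYP4V2, CYP4X1 and CYP4Z1 held no peak, and CYP4F22 held SOX4 only. The family 4 genes with both were CYP4F2, CYP4F3, CYP4F8, CYP4F11 and CYP4F12, all on chromosome 19. The highest SOX4 values were 197 at CYP1B1, 164 at CYP2F1, 152 at CYP3A7, 148 at CYP2A6 and 143 at CYP3A4. The split by family was made after the peaks had been seen.

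Regulators and partners of the P450 genes were looked up as well. Of 13 such genes, among them AHR and its partner ARNT, the xenobiotic receptors NR1I2 and NR1I3, HNF4A and the electron donor POR, none had a peak of either list within 1000 bp, which is little below the 6.35% and 1.08% of all genes in so short a list. Values at other P450 clusters are set beside those of the 8 genes without a test, since each list is 1 library. Over the 29 SOX4 and 42 STAT6 peaks of the 4 CYP3A genes the medians were 103 and 10.1, and over the 13 and 24 peaks of 5 CYP2A, CYP2B and CYP2F genes they were 126 and 9.82. The 8 genes described here had 102 and 10.1.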

How the data were processed

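Hep3B CUT&RUN libraries with SOX4, STAT6 and IgG antibodies, 1 each, were sequenced by the authors, who used Partek Flow and, per the labels, BWA and build hg38. The deposited files are SOX4 and STAT6 peak lists, each called against IgG as the peak names state. Caller, threshold, versions and treatment of multiply matching reads are not given in the sources used here. Per peak the authors deposited the ratio to IgG, called fold enrichment here, its −log10 p, its −log10 q and a whole-number score that was not used. Depth is unknown.

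Peaks were matched to genes of the RefSeq table (GRCh38.p14, the same build) with a margin of 1000 bp and an overlap of at least 1 bp. Positions are 1-based. Starts, strands and promoters came from RefSeq promoter sequences, found for 6 of the 8 genes. Where a gene had several, the first was used. The procedures were tested on simulated data. The genes, lists and motifs were chosen with earlier results of these data known. All 8 genes are named, each with its highest peak and, for the 6 with a known start, the peak nearest it. Exons and sequence under peaks were not analysed here. Python 3.11.15, numpy 2.4.6, scipy 1.17.1, pandas 2.3.3 and matplotlib 3.10.9 were used.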

Additional observations from a re-analysis of the deposited data

How the results depend on the processing

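Over 6 results, 31 alternatives were run, of which 29 left the value much as reported and 2 moved it. The results are counts and shares, which have no direction that could be reversed. The share of STAT6 peaks at the 8 genes that overlapped a SOX4 peak, 100% as reported, was 9.09% when the overlap had to span 50% or more of each peak of the pair and 63.6% with summits within 200 bp. The first rule cannot be met by a STAT6 peak inside a SOX4 peak over 2 times as wide. With a −log10 q or a fold enrichment of at least 5, 35 SOX4 and 41 STAT6 peaks were left at the 8 genes, and all 8 genes still held both. Gene bodies from the promoter start, added after the data had been seen, were covered to 32.2% by SOX4 and 15.6% by STAT6. Shares of summits in exons and of summit windows with a motif were planned but not run, since no genome or exon annotation was used here. No paired analysis was possible because there was only 1 library per antibody. With unknown depth, the difference between lists in peak number or fold enrichment cannot be assigned to the factors.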
